A study of Mus musculus with 32 samples.

Results

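Fas, Tnfrsf10b, Eda2r, Casp8, Cflar and Fadd make up the death receptor set described here. They are 6 mouse genes that were taken by their names in the array design. They are read by 16 probes, of which 14 stood well above background on 4 or more of the 32 arrays, the minimum for a test. The 14 probes read all 6 genes, among 20537 genes tested. Every sample was RNA of thymocytes, the immature T cells of the thymus, from C57Bl/6 mice 6 weeks of age, hybridised to a 1-colour Agilent array. Thymocytes of 2 mice were pooled for each P72 and R72 sample. Mice labelled P72 or R72, which name the proline and arginine forms of p53 at codon 72, were sampled 0, 2 and 4 h after 5 Gy of gamma radiation, the 0 h mice being untreated, in 4 independent experiments per genotype and time. Mice labelled p53-/- and p53+/+ gave 1 array each at 2 h and at 4 h after 5 Gy and 2 untreated arrays each.

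Death receptors are membrane proteins of the TNF receptor family. When ligand gathers them, Fas and Tnfrsf10b recruit the adaptor Fadd, which brings in procaspase-8 so that it cuts and activates itself. Cflar, also called c-FLIP, resembles caspase-8 but lacks its protease activity, and it controls how much caspase-8 is activated. Fas, Tnfrsf10b (the TRAIL receptor DR5, also called KILLER) and Eda2r (XEDAR, a receptor for one form of ectodysplasin, encoded on the X chromosome) are known transcriptional targets of p53. Thymocytes are among the cells that die readily after irradiation, and that death needs p53.

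The probes decide which part of each transcript was measured, so those that stand for the 6 genes are shown 5′ to 3′ in lower case, whole where the bases are known coding sequence (background knowledge) and otherwise by their first 30 bases. The sequences and coordinates come from the scanner files, which place them on mouse build mm7. The gene annotation of that build, with its exons and UTRs, was not used here.
Fas: caactcctggtgtgttctctttgccagcaa
Tnfrsf10b: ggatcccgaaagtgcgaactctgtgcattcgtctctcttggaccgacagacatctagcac
Eda2r: acttatatcactggaatattgaaaggttgt
Casp8: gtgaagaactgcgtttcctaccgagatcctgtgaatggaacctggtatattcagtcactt
Cflar: ttttttgttttagggtctcactatgtaact
Fadd: atgagatgttctccccaaaacacacaaaag
The Fas probe lies at chr19:34028644-34028703 on the plus strand and is spotted 10 times per array, whereas each other probe is spotted once. The Tnfrsf10b probe lies at chr14:64422215-64422274 on the plus strand, and the Eda2r probe at chrX:92661474-92661533 on the minus strand. The Casp8 probe lies at chr1:59095846-59095905 and the Cflar probe at chr1:59009837-59009896, both on the plus strand. The Fadd probe lies at chr7:141003567-141003606 on the minus strand. Fas and Fadd have a second probe each, Tnfrsf10b has 2 further probes, Cflar has 4 and Casp8 has none. The 2 further Eda2r probes did not reach the minimum, being well above background on 0 and 1 of 32 arrays.

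Levels are log2 of the background-corrected signal minus log2 of the same array's 75th percentile, so that 0 is the brightness of the array's upper quartile. A level depends on the probe as well as on the RNA, and levels are therefore compared between samples and never between probes. A gene was called changed where limma's adjusted p over all genes was under 0.05. The 75th percentile signal ran from 268.3 to 1031.3 units over the arrays, 52.2 to 71.2% of probes were well above background on an array, and no spot was saturated. Samples of a group correlated at 0.9744 to 0.995 over the tested genes without missing values. All 14 thymocyte markers examined, among them Cd3e, Cd4 and Rag1, were well above background on all arrays. The Trp53 probe read 0.25 ± 0.17 in P72 and 0.15 ± 0.32 in R72 (SD, n = 12 each), and -0.33 ± 0.19 in p53-/- against 0.05 ± 0.15 in p53+/+ (SD, n = 4 each). The labels do not say which part of Trp53 is missing, so this probe does not check the knockout. Each pool is labelled as 1 male and 1 female. The level of Xist, an RNA made from the inactive X chromosome of females, was nevertheless between -7.92 and -3.74 in replicates 1 and 3 of P72 and R72 and between 5.11 and 5.83 in replicates 2 and 4. It was between -8.82 and -7.20 in p53-/- samples and, in p53+/+ samples, 5.50 in both irradiated samples against -0.88 and -1.46 in the untreated ones.

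**Figure D1:**
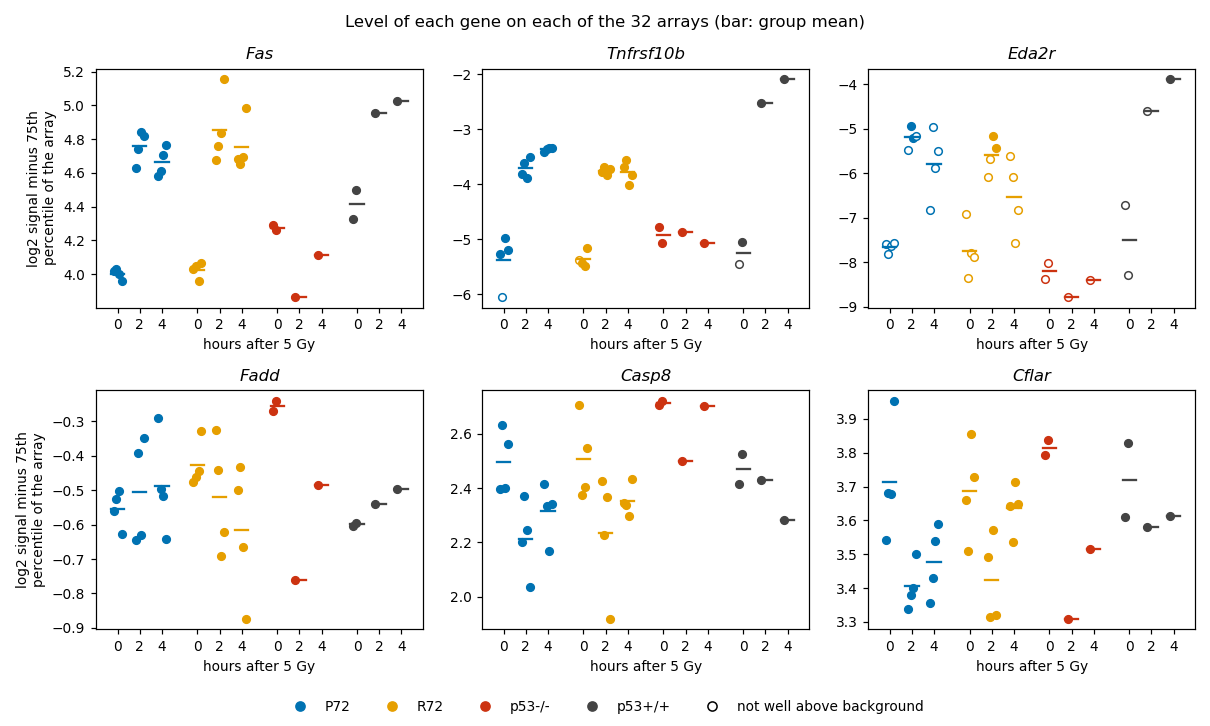
Level of each of the 6 genes on every array, as log2 signal minus the array's 75th percentile, with 1 panel per gene and its own vertical scale; open points are arrays on which the probe was not well above background, and bars are group means. In p53-/- samples Fas, Tnfrsf10b and Eda2r did not lie higher after irradiation, whereas in P72, R72 and p53+/+ samples they did.

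The 3 receptors rose after irradiation in both codon 72 genotypes, and they made up nearly all the calls in the set. In P72 thymocytes 4 of the 6 genes were called at 2 h (3 higher, 1 lower) against 14.5% of all genes, and 4 at 4 h (3 higher, 1 lower) against 56.6% of all genes. In R72 thymocytes 3 were called at 2 h and 3 at 4 h, all higher, against 13% and 44.8% of all genes. The median change of the 6 genes was 0.40 (2 h) and 0.37 (4 h) in P72 and 0.37 and 0.34 in R72 on the log2 scale, against 0.05, 0.105, 0.03 and 0.09 for all genes. At 4 h about as many genes of the whole table as of this set were called, so the 4 h count does not set the 6 genes apart.

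Fas is the receptor of Fas ligand. In P72 thymocytes its level was 4.02, 4.03, 4.00 and 3.96 untreated, 4.63, 4.74, 4.84 and 4.82 at 2 h and 4.58, 4.61, 4.705 and 4.77 at 4 h. In R72 thymocytes it was 4.03, 4.05, 3.96 and 4.07 untreated, 4.68, 4.76, 4.83 and 5.15 at 2 h and 4.68, 4.65, 4.70 and 4.985 at 4 h. Every irradiated sample of either genotype was thus above every untreated one, while the 2 h and 4 h samples overlapped. Fas was higher by 0.75 ± 0.09 at 2 h and 0.66 ± 0.09 at 4 h in P72 (log2 ± SE; limma adjusted p = 9.87e-06 and 6.68e-06), that is 1.69-fold and 1.58-fold. The R72 samples were higher by 0.83 ± 0.09 and 0.73 ± 0.09 (limma adjusted p = 2.98e-06 and 5.29e-06). Centring arrays on their median, which moved the median change of all genes at 4 h to -0.52 in P72 and -0.38 in R72, ended the 4 h calls of Fas, with changes of 0.04 and 0.25 (limma adjusted p = 0.797 and 0.124). Measured against the median change of all genes, Fas was higher by 0.56 in P72 and 0.63 in R72. Both scalings give these values by construction, since each subtracts a constant from every array, so their agreement is no check.

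The second Fas probe, at chr19:34010475-34010534, rose by 0.85 at 2 h in P72 and by 0.86 in R72 (limma adjusted p = 0.00707 and 0.00765, over all probes). At 4 h its change was 0.535 in P72 and 0.475 in R72, of which only the P72 value was called (limma adjusted p = 0.0279 and 0.061). Both probes therefore read a higher Fas level at 2 h.

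Tnfrsf10b is a receptor of the ligand TRAIL. Its level in P72 was -5.27, -6.05, -4.97 and -5.19 untreated, -3.82, -3.62, -3.89 and -3.50 at 2 h and -3.41, -3.36, -3.34 and -3.33 at 4 h. In R72 it was -5.37, -5.43, -5.49 and -5.15 untreated, -3.78, -3.68, -3.835 and -3.73 at 2 h and -3.69, -3.55, -4.01 and -3.83 at 4 h. No irradiated sample overlapped an untreated one, and 1 untreated sample of each genotype was not well above background. The rise was 1.66 ± 0.16 at 2 h and 2.01 ± 0.16 at 4 h in P72 (log2 ± SE; limma adjusted p = 3.38e-07 and 8.52e-09), that is 3.17-fold and 4.02-fold. In R72 it was 1.60 ± 0.16 and 1.59 ± 0.16 (limma adjusted p = 7.18e-07 and 3.52e-07), about 3.04-fold and 3.01-fold. The size depended on the processing: in the authors' deposited value table, analysed the same way, the P72 rise was 0.515 at 2 h and 0.46 at 4 h and was still called. With normexp background correction, which compressed the low end of 3 arrays, only the P72 rise at 4 h was called (1.03), and the other changes were 0.53 in P72 at 2 h and -0.385 and 0.165 in R72 at 2 h and 4 h (limma adjusted p = 0.825, 0.419 and 1). With the local background capped before normexp, which was added after seeing the data, 3 of these 4 rises were called and the R72 change at 2 h was 0.37 (limma adjusted p = 0.183).

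The other Tnfrsf10b probes gave the same calls. The second probe, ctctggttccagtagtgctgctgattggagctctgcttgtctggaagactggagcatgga at chr14:64420668-64420725, was well above background on no untreated P72 array. Its target was at least 3.25-fold higher at 2 h and at least 4.01-fold higher at 4 h in P72, where such a bound sets the irradiated level against the dimmest signal that an untreated array could tell from background. The third probe, at chr14:64427866-64427925, was 1.34-fold over the floor at 4 h in P72 and 1.28-fold at 4 h in R72. Of the 4 irradiated arrays behind each value, 1 in P72 and 3 in R72 were well above background.

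Eda2r stood near the background throughout, and its probe was well above it on 5 of 32 arrays. In P72 its level was -7.82 to -7.565 untreated, -5.47, -4.93, -5.195 and -5.17 at 2 h and -6.82 to -4.96 at 4 h. The R72 range was -8.36 to -6.93 untreated, -6.09, -5.68, -5.155 and -5.43 at 2 h and -7.57 to -5.61 at 4 h. At 2 h, 2 of 4 samples of each genotype were well above background, no untreated sample was, and the groups did not overlap. Eda2r was called higher at 2 h in P72 and in R72 (limma adjusted p = 0.000178 and 0.000781). Its 2 h mean, which includes arrays not well above background, was 1.48-fold over the untreated floor in P72 and 1.08-fold in R72. These 2 h calls ended with normexp, where the changes were 0.36 in P72 and -0.76 in R72 (limma adjusted p = 0.925 and 0.21), and with the local background capped before it, where they were 0.365 and 0.14 (limma adjusted p = 0.315 and 0.86). At 4 h it was called in both genotypes (limma adjusted p = 0.000373 in P72 and 0.0137 in R72), but no array of either side was well above background and no fold is given. The R72 call at 4 h ended without untreated replicate 2 (1.015, limma adjusted p = 0.0539) and without 4 h replicate 1 (0.91, limma adjusted p = 0.0614). The 4 h calls of both genotypes also ended under quantile normalization (0.63 in P72, 0.355 in R72). They ended too in the authors' deposited value table (0.18 and 0.13) and with normexp (0.89 and 0.10). With median scaling the R72 call ended (0.74, limma adjusted p = 0.0756).

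**Figure D2:**
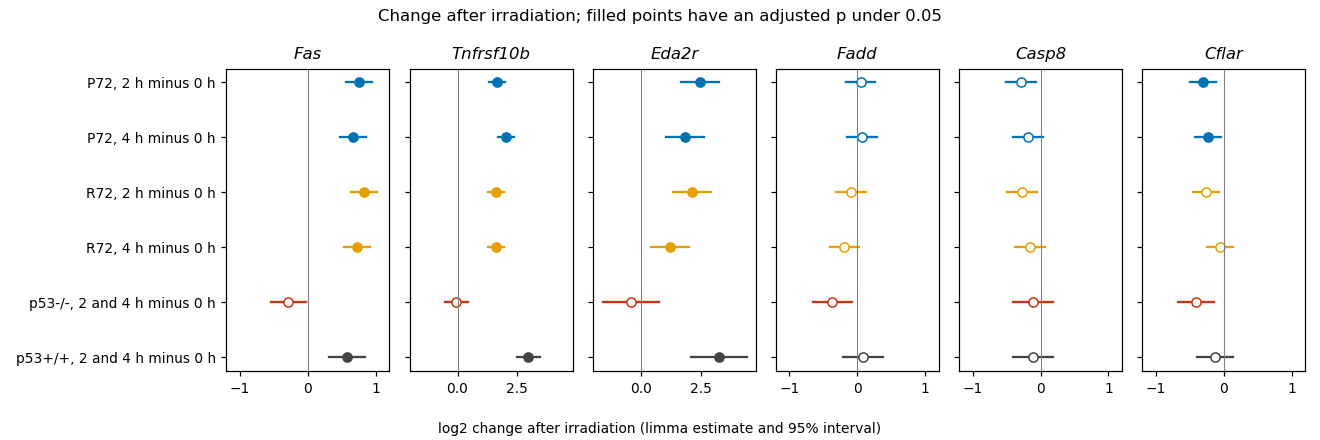
Change of each of the 6 genes after irradiation, as the log2 difference between irradiated and untreated samples with its 95% confidence interval, for P72, R72, p53-/- and p53+/+; the horizontal range is wider for Tnfrsf10b and Eda2r than for the other genes, and filled points mark changes with an adjusted p under 0.05. Tnfrsf10b changed by -0.05 in p53-/- and by 2.95 in p53+/+.

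The adaptor, the caspase and its regulator moved little beside the receptors. Casp8, the initiator caspase of the pathway, was 2.50 ± 0.12 untreated, 2.21 ± 0.14 at 2 h and 2.32 ± 0.10 at 4 h in P72 (SD, n = 4 each). In R72 it was 2.51 ± 0.15, 2.235 ± 0.23 and 2.35 ± 0.06 at the same times (SD, n = 4 each). All 4 means after irradiation lay below the untreated mean of their genotype, and in P72 at 2 h the samples did not overlap. The changes of -0.285 in P72 and -0.27 in R72 at 2 h were not called (limma adjusted p = 0.0752 and 0.0918), nor were those of -0.18 and -0.155 at 4 h. With arrays centred on their median, where all genes shifted downwards, Casp8 was called lower in all 4 comparisons, by -0.49 and -0.81 at 2 h and 4 h in P72 and by -0.39 and -0.63 in R72.

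Cflar was the member called lower in P72. Its level there was 3.54, 3.68, 3.68 and 3.95 untreated, 3.34, 3.38, 3.40 and 3.50 at 2 h and 3.36, 3.43, 3.54 and 3.59 at 4 h. The R72 samples read 3.66, 3.51, 3.86 and 3.73 untreated, 3.49, 3.32, 3.57 and 3.32 at 2 h and 3.64, 3.54, 3.71 and 3.65 at 4 h. The P72 samples at 2 h lay below all untreated ones, whereas the P72 samples at 4 h and the R72 samples at both times overlapped them. The P72 change was -0.31 ± 0.09 at 2 h and -0.235 ± 0.09 at 4 h (log2 ± SE; limma adjusted p = 0.0298 and 0.0358). In R72 it was -0.26 ± 0.09 at 2 h and -0.05 ± 0.09 at 4 h, neither called (limma adjusted p = 0.066 and 0.681). The P72 calls were marginal. Both ended without untreated replicate 4, with changes of -0.23 at 2 h and -0.155 at 4 h. The 2 h call also ended without 2 h replicate 1, 2 or 3 (limma adjusted p = 0.0778, 0.0674 and 0.0548). The 4 h call ended without 4 h replicate 1 or 2 (limma adjusted p = 0.106 and 0.0808). Both calls also ended under quantile normalization, in the authors' deposited value table and with no filter on dim probes (changes of -0.31 to -0.04). With normexp they ended as well, at -0.35 and -0.39 (limma adjusted p = 0.525 and 0.0861).

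Cflar transcripts differ at their ends, and the array reads several of them. The files tie 1 probe to transcript variant 1 and 1 to the transcript called CASH alpha, both known as the long form, at chr1:59005361-59005420 and chr1:59005341-59005405, and these share a run of 36 bases that begins CTGAATGTAACTTGAGACTTACCTGAGTTT, with capitals marking the shared bases. Their targets overlap, so they are not independent readings. At 4 h in P72 they were lower by -0.57 and -0.465 (limma adjusted p = 0.000956 and 0.0122), with no overlap between 4 h and untreated samples. At 4 h in R72 they changed by -0.32 and -0.325, neither called (limma adjusted p = 0.0502 and 0.088). The files tie 2 further probes to transcript variant 2, known as a short form. Whether these probes also read other forms was not looked up, so their changes are not specific to the short form. The one at chr1:58983653-58983712 was lower at 4 h by -0.38 in P72 and -0.39 in R72 (limma adjusted p = 0.00957 and 0.0119). The other reads coding sequence, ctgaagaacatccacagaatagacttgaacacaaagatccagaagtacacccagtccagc, between chr1:58982319 and chr1:58983343. It was lower at 2 h in P72 by -0.37 (limma adjusted p = 0.0283) and was called at no other time or genotype. All 5 Cflar probes thus read below the untreated mean at both times in both genotypes, with changes between -0.57 and -0.01, but which of them passed the threshold differed.

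Fadd, the adaptor, was -0.55 ± 0.05 untreated, -0.50 ± 0.16 at 2 h and -0.49 ± 0.15 at 4 h in P72, and -0.43 ± 0.07, -0.52 ± 0.17 and -0.62 ± 0.20 in R72 (SD, n = 4 each). None of these changes was called (limma adjusted p between 0.149 and 0.796). The second Fadd probe, at chr7:141003792-141003851, went the other way in R72 and was higher at 4 h in both genotypes, by 0.30 ± 0.08 in P72 and 0.295 ± 0.08 in R72 (log2 ± SE; limma adjusted p = 0.0034 and 0.00545). The 2 probes disagree, and with arrays centred on their median the first probe was called lower at 4 h, by -0.56 in P72 and -0.67 in R72. No direction is given for Fadd.

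**Figure D3:**
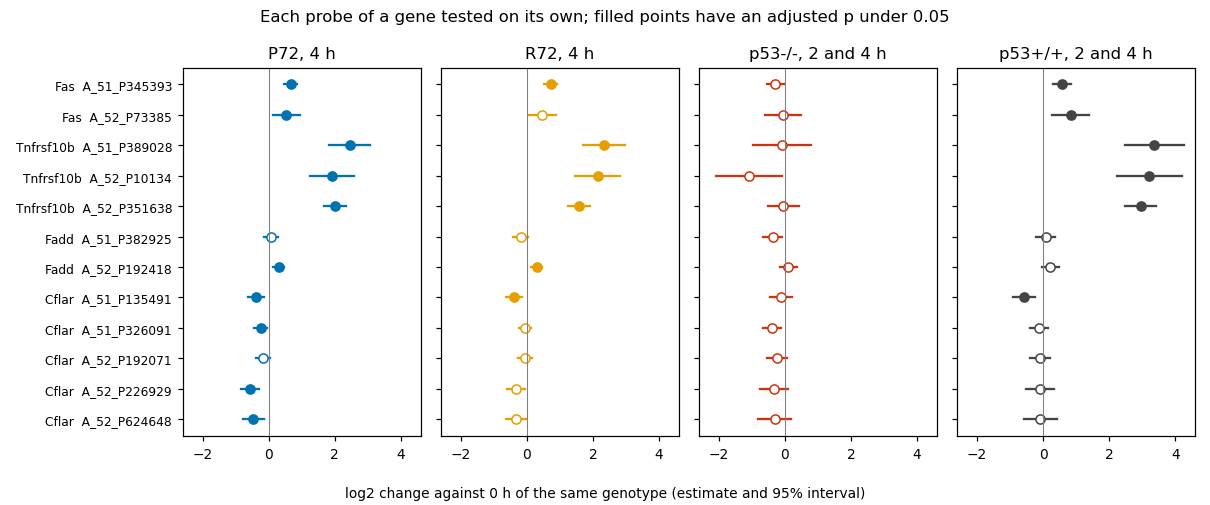
Change after irradiation for each probe of the genes with more than 1 tested probe, as the log2 difference between irradiated and untreated samples with its 95% confidence interval, at 4 h in P72 and R72 and over 2 h and 4 h in p53-/- and p53+/+; filled points have an adjusted p under 0.05. The probes of Tnfrsf10b lie well above 0 in P72, R72 and p53+/+, those of Cflar lie at or below 0, and those of Fadd fall on different sides of 0 in R72 at 4 h.

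Between 2 h and 4 h no member was called in P72 or in R72 by limma (1 and 2 of 6 at an unadjusted p under 0.05), against 32.1% of all genes in P72 and 21% in R72. With 6 genes such a count does not show that the set was flat, and median scaling called 5 in P72 and 3 in R72. Tnfrsf10b was 0.34 ± 0.16 higher at 4 h than at 2 h in P72, where the samples did not overlap (limma adjusted p = 0.107), and changed by -0.01 ± 0.16 in R72. Cflar changed by 0.21 ± 0.09 in R72 (limma adjusted p = 0.11). The fitted changes of Eda2r, -0.60 in P72 and -0.94 in R72, were not called (limma adjusted p = 0.242 and 0.0857). No 4 h array of either genotype was well above background for Eda2r, so these sizes are uncertain.

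The comparison of P72 with R72 asks whether the amino acid at codon 72 alters the level of these genes. No member was called at 0, 2 or 4 h by limma (0, 0 and 1 of 6 at an unadjusted p under 0.05), against 0.925%, 1.29% and 1.26% of all genes. Fas was 4.67 ± 0.085 in P72 against 4.755 ± 0.155 in R72 at 4 h (SD, n = 4 each), a difference of -0.09 with a 95% interval from -0.28 to 0.10. Casp8 differed by -0.04 at 4 h (-0.26 to 0.18), Cflar by -0.16 (-0.35 to 0.04) and Fadd by 0.13 (-0.09 to 0.35). For the probes that stand for these 4 genes, a difference beyond about 0.35 on the log2 scale lies outside the 4 h intervals. That bound does not cover the other probes of Fas, Cflar and Fadd. The second Fas probe went the other way at 4 h, with -0.18 ± 0.29 in P72 against -0.45 ± 0.07 in R72 (SD, n = 4 each).

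At 4 h the Tnfrsf10b level was -3.41 to -3.33 in P72 samples and -4.01 to -3.55 in R72 samples, without overlap. The P72 and R72 samples of Fadd did not overlap at 0 h, with a difference of -0.13 that was not called (limma adjusted p = 0.864). How many of all genes lacked overlap was not counted, so the lack of overlap does not set Tnfrsf10b apart. The Tnfrsf10b difference of 0.41 ± 0.16 (95% interval 0.07 to 0.74) was not called (limma adjusted p = 0.257). It was not seen with the other Tnfrsf10b probes, which differed by 0.17 (-0.47 to 0.80) and 0.00 (-0.68 to 0.68). Within the scan day that held 2 samples of each genotype at 4 h the difference was 0.23. For Eda2r no size is given at 4 h, since no array of either genotype was well above background, and its difference was not called (limma adjusted p = 0.413). The responses to irradiation, each genotype's irradiated minus its untreated mean, were compared too. No member's response differed between P72 and R72 at 2 h or at 4 h by limma (0 of 6 at an unadjusted p under 0.05 both times), against 0.00487% and 0% of all genes called. The response of Tnfrsf10b at 4 h was 0.42 larger in P72 (95% interval -0.06 to 0.89) and that of Fas 0.06 smaller (difference -0.06, interval -0.33 to 0.21).

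The p53-/- and p53+/+ samples ask how much of the radiation response needs p53. The 2 h and 4 h arrays of a genotype were averaged, and the spread of the single irradiated arrays was taken to be that of the other groups. Sex markers moved with irradiation in p53+/+: beside Xist, the Y-linked Ddx3y read 1.13 to 2.00 in all 4 p53-/- samples, and in p53+/+ -6.83 at 2 h and -7.70 at 4 h against 2.04 and 2.06 untreated, and Eif2s3y and Kdm5d split the same way. In p53+/+ samples irradiation and sex therefore cannot be told apart for any of the 6 genes, and the same holds for every comparison of the irradiated p53-/- and p53+/+ samples or of their responses. Each P72 and R72 group held 2 samples of each marker pattern. In p53-/- thymocytes no member was called after irradiation by limma (3 of 6 at an unadjusted p under 0.05), against 1.07% of all genes. In p53+/+ thymocytes 3 of 6 were called, all higher, against 23.5% of all genes. The median change was -0.33 in p53-/- and 0.33 in p53+/+ for the 6 genes, against -0.004 and 0.09 for all genes. Comparing irradiated p53-/- with irradiated p53+/+ samples, 3 of 6 were lower in p53-/-, against 21.9% of all genes called. The response itself differed for 3 of 6, all smaller in p53-/-, against 5.42% of all genes. Before irradiation no member differed by limma (1 of 6 at an unadjusted p under 0.05), against 0.711% of all genes.

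Tnfrsf10b read -4.87 at 2 h and -5.07 at 4 h in p53-/-, against -4.78 and -5.07 untreated. In p53+/+ it read -2.52 at 2 h and -2.09 at 4 h, against -5.45 and -5.05 untreated. The irradiated p53-/- samples lay within the untreated range, and the irradiated p53+/+ samples were the highest of all 32 arrays. The change was -0.05 ± 0.23 in p53-/- (limma adjusted p = 0.977) and 2.95 ± 0.23 in p53+/+ (limma adjusted p = 3.95e-09), and the response differed by -2.995 ± 0.32 (limma adjusted p = 2.04e-06). With normexp the p53+/+ change was 1.37 and the response difference -1.61, neither called (limma adjusted p = 0.113 and 0.359), whereas with the local background capped they were 1.38 and -1.62 and both were called. The other 2 probes gave response differences of -3.46 and -4.30, both called, although neither probe was well above background in untreated p53+/+ samples, nor the third in any p53-/- sample, so that these sizes are uncertain.

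Fas read 3.87 at 2 h and 4.11 at 4 h in p53-/-, against 4.29 and 4.26 untreated. In p53+/+ it read 4.95 at 2 h and 5.03 at 4 h, against 4.33 and 4.50 untreated. Irradiated samples lay below the untreated ones in p53-/- and above them in p53+/+. The change of -0.29 ± 0.13 in p53-/- was not called (limma adjusted p = 0.343), while that of 0.58 ± 0.13 in p53+/+ was (limma adjusted p = 0.0025). The p53+/+ call ended with arrays centred on their median (0.17, limma adjusted p = 0.493) and with normexp (0.49, limma adjusted p = 0.296). The response differed by -0.86 ± 0.18 (limma adjusted p = 0.00528), a call that ended without the 2 h p53-/- array (-0.74, limma adjusted p = 0.0608), in a fit of these 8 arrays alone (limma adjusted p = 0.0575), with arrays centred on their median (-0.49, limma adjusted p = 0.215) and with normexp, plain (-0.66, limma adjusted p = 0.491) or capped (-0.66, limma adjusted p = 0.0525). The second Fas probe changed by -0.06 in p53-/- and 0.84 in p53+/+, of which only the p53+/+ change was called (limma adjusted p = 0.0285). For this probe neither the difference between those changes (-0.89, limma adjusted p = 0.174) nor that between irradiated p53-/- and p53+/+ samples (-0.58, limma adjusted p = 0.128) was called.

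Eda2r was well above background on no p53-/- array, where it read -8.78 at 2 h and -8.41 at 4 h, against -8.37 and -8.01 untreated. In p53+/+ it read -4.59 at 2 h and -3.89 at 4 h, against -6.72 and -8.30 untreated, and was well above background at 4 h. After irradiation it was called lower in p53-/- than in p53+/+ (limma adjusted p = 1.52e-05). In p53+/+ it was called higher after irradiation than before (limma adjusted p = 0.000336). Irradiated p53+/+ arrays averaged 4.51-fold over the floor of irradiated p53-/- arrays and 2.18-fold over that of untreated p53+/+ arrays. That average includes the 2 h p53+/+ array, which was not well above background. The response was called different (fitted difference -3.68, limma adjusted p = 0.00899), but with 0 of 4 p53-/- and 1 of 4 p53+/+ arrays well above background that size is not a measured one. This call ended without untreated p53+/+ replicate 2 (-2.89) and without the 4 h p53+/+ array (-3.33). It also ended in a fit of the 8 p53-/- and p53+/+ arrays alone and with normexp (-1.32, limma adjusted p = 0.648). With normexp the irradiated difference (-1.15) and the p53+/+ change (0.87) of Eda2r were not called either (limma adjusted p = 0.324 and 0.545).

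The irradiated p53-/- and p53+/+ arrays were on different slides, each with 1 untreated array of both genotypes. With slide as a fixed term the fitted irradiated difference was -1.10 for Fas, -3.015 for Tnfrsf10b and -3.39 for Eda2r, all still called (limma adjusted p = 0.000429, 1.26e-05 and 0.0125). The difference in response was then -0.97 for Fas, -3.34 for Tnfrsf10b and -2.71 for Eda2r, the last no longer called (limma adjusted p = 0.0116, 6.36e-05 and 0.122). Within the slide of the irradiated p53-/- arrays the change against the untreated p53-/- array there was -0.30 for Fas and -0.19 for Tnfrsf10b, and within that of the irradiated p53+/+ arrays it was 0.66 and 3.15 in p53+/+.

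Casp8 was 0.25 ± 0.14 higher in irradiated p53-/- than in irradiated p53+/+ samples and 0.24 ± 0.14 higher in untreated ones, neither called (limma adjusted p = 0.212 and 0.565), although the irradiated difference was called with arrays centred on their median (0.62, limma adjusted p = 0.00573). Cflar read 3.31 and 3.52 after irradiation in p53-/-, against 3.79 and 3.84 untreated, and the change of -0.40 ± 0.13 was not called (limma adjusted p = 0.147). In p53+/+ it changed by -0.12 ± 0.13 (limma adjusted p = 0.504). The Cflar probe at chr1:58983653-58983712 was lower after irradiation in p53+/+ by -0.57 (limma adjusted p = 0.0143) and changed by -0.12 in p53-/- (limma adjusted p = 0.869). It was 0.47 higher in irradiated p53-/- than in irradiated p53+/+ samples (limma adjusted p = 0.0405). The difference between these 2 changes was 0.45 (limma adjusted p = 0.249) and was not called. Fadd changed by -0.37 ± 0.14 in p53-/- and 0.08 ± 0.14 in p53+/+, neither called (limma adjusted p = 0.248 and 0.693).

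The rest of the pathway gives the setting for the 6 genes. Of 70 further genes listed by role, 67 were tested. Among 6 death ligands tested, 4 rose and none fell at 4 h in P72 (median 0.94), and 2 rose in R72 (median 0.57). These and the following counts at 4 h stand beside 56.6% of all genes called in P72 and 44.8% in R72, shares that the ligands, with 2 of 6 in R72, and the effectors, with 9 of 17 in P72, did not exceed. Fasl, the ligand of Fas, read -3.39 ± 0.15 untreated, -2.745 ± 0.09 at 2 h and -1.82 ± 0.18 at 4 h in P72, and -3.585 ± 0.06, -3.21 ± 0.28 and -2.61 ± 0.24 in R72 (SD, n = 4 each). The 4 h samples of either genotype were above all its untreated ones, and those of P72 (-2.04 to -1.64) were above those of R72 (-2.85 to -2.30). Fasl rose by 1.57 ± 0.13 at 4 h in P72 and by 0.97 ± 0.13 in R72 (limma adjusted p = 1.53e-08 and 1.06e-05), and was 0.79 ± 0.13 higher in P72 than in R72 at 4 h (limma adjusted p = 0.00344). In p53-/- it read -3.22 at 2 h and -3.15 at 4 h against -3.33 and -3.18 untreated. In p53+/+ it read -2.07 at 2 h and -1.16 at 4 h against -2.81 and -2.78 untreated. The response of Fasl was smaller in p53-/- by 1.11 on the log2 scale (difference -1.11 ± 0.25, limma adjusted p = 0.0114). Tnf rose at 4 h by 1.465 in P72 and by 1.13 in R72 (limma adjusted p = 2.56e-06 and 7.54e-05).

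Among 12 further receptors and decoys, 8 rose and 2 fell at 4 h in P72 (median 0.98), and 6 rose and 2 fell in R72 (median 0.67). Tnfrsf26, a mouse TNF receptor homologue, rose by 0.77 at 2 h and 0.87 at 4 h in P72 and by 0.74 and 0.68 in R72. Its response was smaller in p53-/- than in p53+/+ (difference -0.75 ± 0.15, limma adjusted p = 0.0046). Tnfrsf12a, the receptor of the cytokine TWEAK, rose by 1.39 at 4 h in both codon 72 genotypes. Tnfrsf1b, the second TNF receptor, rose by 1.10 at 4 h in P72 and was then 0.58 ± 0.14 higher in P72 than in R72 (limma adjusted p = 0.0474). In irradiated samples 2 receptors were higher and 1 lower in p53-/- than in p53+/+.

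Of 32 adaptors, kinases and inhibitors, 11 rose and 11 fell at 4 h in P72 (median 0.02), and 9 rose and 8 fell in R72 (median -0.03). Pidd1, a death domain protein of the p53 pathway that activates caspase-2, rose by 2.43 ± 0.14 at 2 h in P72 and 2.21 ± 0.14 in R72. It rose by 2.18 ± 0.18 in p53+/+, and its response was smaller in p53-/- (difference -1.65 ± 0.26, limma adjusted p = 0.000372). Edaradd, the adaptor of the ectodysplasin receptor Edar, fell by 1.72 at 4 h in P72 and by 1.16 in R72. Of 17 effectors downstream, 3 rose and 6 fell at 4 h in P72 (median -0.18), and 2 rose and 6 fell in R72 (median -0.075). Apaf1, the scaffold of the apoptosome, rose by 2.17 at 2 h in P72 and 2.34 in R72, and Bid, which links caspase-8 to the mitochondrion, fell by 1.42 at 4 h in P72 and by 1.23 in R72. The response of Apaf1 was smaller in p53-/- (difference -1.865 ± 0.28, limma adjusted p = 0.000208), and that of Bid differed in the other direction (1.03 ± 0.20, limma adjusted p = 0.00313). Gsdme, a pore-forming protein cut by caspase-3, was the one gene of the 4 lists called after irradiation in p53-/- (1.24 ± 0.17, limma adjusted p = 0.00103). It read 0.91 at 2 h and -1.02 at 4 h there, against -1.32 and -1.26 untreated, so that the call rests on the 2 h array.

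**Figure D4:**
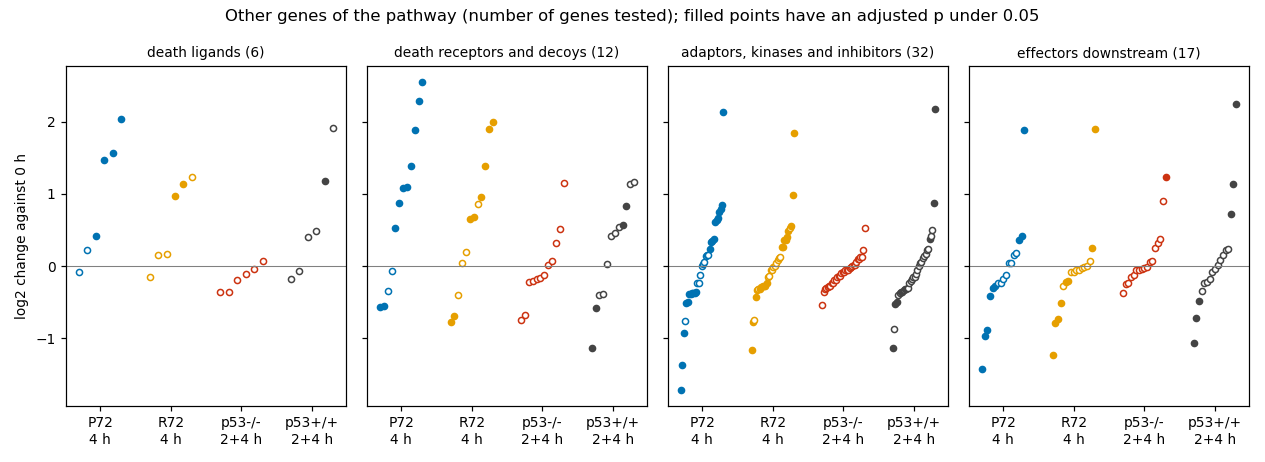
Change after irradiation of the further genes of the pathway, by role, as log2 differences between irradiated and untreated samples at 4 h in P72 and R72 and over 2 h and 4 h in p53-/- and p53+/+, with 1 point per gene, filled where the adjusted p was under 0.05. Ligands and receptors lie mostly above 0 in P72 at 4 h, whereas adaptors and effectors lie on both sides of it.

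Markers of other cells moved with some of these groups. At 4 h in P72, 12 of 12 neutrophil markers were called higher, with a summed level (linear signal over the 75th percentile) of 71.5 to 148 against 35.4 to 63.1 untreated. Likewise 8 of 12 macrophage markers were higher (79.2 to 106 against 29.6 to 56.5) and 10 of 12 dendritic cell markers (62.7 to 72.5 against 23.9 to 40.9), as were 9 of 13 thymic epithelial markers, though their sums overlapped (86.3 to 201 against 114 to 183). At 4 h in R72 the counts were 1 neutrophil, 4 macrophage, 9 dendritic and 4 epithelial markers higher. Of all 20536 genes tested, 56.6% were called at 4 h in P72 (7355 higher) and 44.8% in R72 (5918 higher). Beside those shares the R72 counts, except the dendritic one, do not stand out. In p53-/- none of these was called, against 1.07% of all genes. In p53+/+ 6 neutrophil, 1 macrophage, 1 dendritic and 3 epithelial markers were higher, against 23.5% of all genes called. Stromal, erythroid and B cell markers were called in both directions or in 4 or fewer members in P72 and R72 at 4 h. The summed B cell level was nevertheless lower at 4 h than untreated, without overlap. It was 33.5 to 35.9 against 55.2 to 60.1 in P72 and 32.1 to 40.5 against 50.1 to 58.1 in R72. In p53+/+ it was 49.2 at 2 h and 37.5 at 4 h against 55.1 to 58.1 untreated. In p53-/- it was 53 at 2 h and 67.2 at 4 h against 64 to 65.9 untreated. All 12 macrophage markers were well above background on every P72 array. In such bulk samples fewer cells of a type and less RNA per cell cannot be told apart, and the part of these cells in the receptor and ligand changes was not tested. At 2 h no neutrophil or macrophage marker was called in P72 or R72, against 14.5% and 13% of all genes. At that time 7 dendritic and 6 epithelial markers were higher in P72 and none in R72.

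Over the 12 group means, which share arrays and scaling, the 3 receptors followed each other, with Pearson's r of 0.89 between Fas and Tnfrsf10b, 0.93 between Fas and Eda2r and 0.925 between Tnfrsf10b and Eda2r. Casp8 ran the other way, with r = -0.785 to Eda2r and -0.72 to Fas, and Cflar and Fadd followed neither receptor (r between -0.27 and 0.09). The Eda2r probe was well above background on 5 of 32 arrays, so every r with Eda2r rests largely on signal near background. Each irradiated p53-/- or p53+/+ mean was a single array, and in p53+/+ irradiation cannot be told from sex. Among about 13137 other genes the patterns most like that of Fas were those of Susd6 (r = 0.975), Ulk1 (0.97) and Mapkapk3 (0.96). Those most like Tnfrsf10b were Cep170b (0.996), Pdcd6ip (0.98) and Aaas (0.98), and those most like Eda2r were Ptp4a3 (0.97), Fam160a2 (0.97) and Dcaf4 (0.97). Genes like Casp8 included Tmem50b (0.95) and Gfi1 (0.93), Cflar was most like Tbc1d22b (0.93), Arhgap9 (0.92) and Stx7 (0.895), and Fadd most like Stxbp2 (0.92), Ctu1 (0.89) and Nudt16 (0.885). In RefSeq promoter windows on GRCm38.p6, from 250 bases before to 50 after the start, the p53 half-site was found in 0 of the 5 members with a window and in 8.36% of all 32851 windows, both strands searched. Tnfrsf10b had no window.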

How the data were processed

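RNA of 32 samples was hybridised to 1-colour arrays, and the deposited scanner files hold background-subtracted signal intensity per spot from Agilent Feature Extraction 9.5.3, per the submitters' processing notes (9.5.3.1 per the file headers). The authors' deposited value table of log2 values served as an alternative, and the labels do not give its scaling. Control spots and flagged values (0.223%) were left out, spots of a probe were averaged, and log2 intensity was centred on each array's 75th percentile. Probes well above background on at least 4 arrays were tested with limma 3.58.1 in R 4.3.3, two-sided, with Benjamini-Hochberg adjustment over all genes. The probe with the highest mean level stood for a gene in gene tables, and probes were also tested on their own over all probes. P72 and R72 comparisons used 24 arrays, p53-/- and p53+/+ comparisons all 32. Array number limits the precision. The fit was tested on simulated data. The members and lists were chosen with earlier results of these data known. Named genes were all members, Trp53, up to 3 genes per list, direction and comparison with the smallest p, and the 3 genes most like each member, of which 1 is not reported here. Alternatives covered background correction, scaling, filter, probe choice, slide, scan day, replicate block, samples fitted and each replicate left out.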

Additional observations from a re-analysis of the deposited data

Results flagged for a closer look

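In 84 groups of 4 samples, 1 per probe and group, 3 had a sample far from the other 3; chance gives about 1 in 20 groups. Fas in R72 at 4 h was 4.985 in replicate 4, against 4.65 to 4.70 in the others. The second Tnfrsf10b probe, at chr14:64420668-64420725, was -7.313 in untreated P72 replicate 1, against -5.86 to -5.625 in the others, none of them well above background. The same probe was -4.066 in P72 replicate 1 at 4 h, against -3.59 to -3.54 in the others.

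The response to irradiation differed between p53-/- and p53+/+ thymocytes for 3 genes, by limma's test of the difference itself. The difference, p53-/- minus p53+/+, was -2.995 for Tnfrsf10b, -0.864 for Fas and -3.678 for Eda2r. The Eda2r value is a fitted one from a probe well above background on 0 of 4 p53-/- and 1 of 4 p53+/+ arrays, so only its direction can be read. Irradiated and untreated p53+/+ samples also differed in their sex markers.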

How the results depend on the processing

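Single arrays at 2 h and 4 h in p53-/- and p53+/+, dim probes and shared slides limit these results. Of 768 changes of single genes with 1 sample left out, 753 kept their side of the threshold and, where called, their direction. Under the other settings 1122 of 1198 did so. The number of the 6 genes called moved as follows. With normexp background correction, which compressed the low end of 3 arrays, it was 1 and 2 in P72 (2 h, 4 h), 1 and 1 in R72, 0 in p53+/+, 1 between irradiated p53-/- and p53+/+ and 0 for their difference in response; with the local background capped, added after seeing the data, it was 1 in R72 at 2 h. Requiring signal on all 32 arrays left Tnfrsf10b and Eda2r untested. Among the members still tested it gave 2 in P72 at both times. It gave 1 in R72 at 4 h, in p53+/+, between irradiated p53-/- and p53+/+ and for their difference in response. Quantile normalization gave 2 in P72 at 4 h, and 1 in P72 and 2 in R72 between 2 h and 4 h; the authors' deposited value table gave 2, 1 and 1. Median scaling gave 5 in R72 at 2 h, and 5 in P72 and 3 in R72 between 2 h and 4 h. Scan day as a fixed block gave 1 in R72 between 2 h and 4 h and 1 in irradiated p53-/-, slide as a fixed or random block 1 in R72 between 2 h and 4 h, and leaving out single replicates 0 to 1 there. A fit of the 8 p53-/- and p53+/+ arrays alone gave 1 for the difference in response. Among changes called as reported or under the alternative, directions turned with median scaling for Fadd in P72 at 4 h (-0.557) and, between 2 h and 4 h in P72, for Casp8 (-0.312), Cflar (-0.341) and Fadd (-0.397). They turned with normexp in R72 at 2 h for Eda2r (-0.76) and Tnfrsf10b (-0.385) and with the second Fadd probe in R72 at 4 h (0.295). They also turned with the Cflar probe at chr1:58983653-58983712 between irradiated p53-/- and p53+/+ (0.472). For normexp the cause was not tested. Changes called in neither setting turned as well, such as Eda2r between 2 h and 4 h with normexp (0.53 in P72, 0.856 in R72). Over the alternatives other than single replicates, all-gene calls ran from 498 to 4305 in P72 at 2 h (2981 as reported), 5833 to 15393 at 4 h (11633), 355 to 3790 in R72 at 2 h (2679), 1315 to 13239 at 4 h (9207), 14 to 289, 38 to 532 and 16 to 496 between P72 and R72 at 0, 2 and 4 h (190, 265 and 258), 0 to 470 in irradiated p53-/- (219), 1002 to 8108 in irradiated p53+/+ (4834), and 228 to 2302 for their difference in response (1112). The labels do not pair the replicate numbers. Same-number pairs were more alike in their deviations from group means (35 of 60 correlated above 0.1, median 0.124) than other pairs (20 of 180, median -0.032), and the sex markers followed the numbers, but not every same-number pair passed 0.1, so the fit without the block was kept. The replicate block called 4 members in P72 and 4 in R72 at 2 h, 4 and 3 at 4 h, and 0 between 2 h and 4 h and between P72 and R72. Untreated p53-/- against p53+/+, with 0 members called either way, had 170 genes called with the block and 178 with the numbers crossed (146 without).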
